A study of Mus musculus with 9 samples.

Results

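The genes described here are those of cytokines, growth factors and their receptors in 6DT1 cells after Resf1 knockdown. They were taken by symbol from the protein-coding genes of the deposited table: chemokines, interleukins, colony-stimulating factors, the TNF, TGF-β, EGF, PDGF, IGF and Wnt families, the ephrins, semaphorins and Notch ligands, and the receptors of each. Cxcl5, Il24 and Ephb2 were left out. The rule found 69 of the 5301 genes in the table, of which 25 encode ligands, 37 receptors and 2 IGF-binding proteins, while 5 carry a matching symbol but encode neither a ligand nor a receptor. Another 318 protein-coding symbols of the annotation matched the rule but had no row in the table and were not analysed here.

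6DT1 is a mouse mammary tumor line that came from an MMTV-Myc tumor and can be grafted into FVB/NJ mice. The cells carried a lentiviral hairpin under puromycin selection at 10 μg/ml: a scramble hairpin (shControl, labelled wildtype) or 1 of 2 shRNAs against Resf1, a gene known for its part in silencing retroelements (shH4 and shH6). Total RNA was collected 24 hours after seeding from 3 dishes per group, giving 9 libraries. The dishes of a group came from 1 transduced line, so the hairpin and the line cannot be told apart, and each p-value measures the spread between dishes only.

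Ligands of these families are secreted or held at the cell surface, and each acts through a receptor on the same or a neighboring cell. The receptors pass the signal through a few shared routes: cytokine receptors through JAK kinases and STAT factors, TNF receptors through TRAF adaptors to NF-κB, TGF-β and BMP receptors through SMADs, Frizzled receptors through Dishevelled and β-catenin, and growth factor receptors through tyrosine kinase adaptors. Mammary tumor cells use these signals to act on themselves and on the macrophages, neutrophils, lymphocytes and vessels around them.

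The 2 hairpin sequences, which define the knockdown groups, are shown first, with the seed (bases 2 to 8, counted from the 5′ end) in capitals.
H4: tTTCGATTtgtaacataggtc
H6: aAACAACCaagttacctcagg
The seeds differ. The reverse complement of H4 was found in 5 of the 11 annotated Resf1 transcripts and that of H6 in 2 of them, and in the transcripts of 0 of the 69 genes. Resf1 itself was at normalized counts of 1591, 1553 and 1610 in shControl, 976, 953 and 1016 with shH4 and 1120, 1113 and 1130 with shH6. All 6 knockdown libraries were below all 3 shControl libraries, and the log2 fold change against shControl was −0.69 in shH4 (limma, SE 0.043, adjusted p = 2.34e-09) and −0.50 in shH6 (SE 0.043, adjusted p = 8.72e-08).

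The values are normalized counts, that is, read counts divided by a size factor of the library. Each of the 9 libraries held between 10.5 and 19.9 M estimated reads in the listed genes. Every listed gene had the same sign of change with either hairpin, and 100% of the genes passed the test of the hairpins' mean against shControl. The table therefore holds genes picked for differing from shControl, by a rule that was not stated. Each count against shControl below is a count among such genes. The difference of shH6 from shH4 uses no shControl value, but its test shares an estimate of the spread with the shControl libraries. Its 6 libraries also took part in the choice of the listed genes. Since fold changes use log2(value + 1), those of genes with low values are understated. Where a pair of log2 fold changes is given, the first is that of shH4 and the second that of shH6. Markers fixed for other cell types were read in the same libraries. Of 13 mammary epithelial markers, Krt8 and Krt18 were listed, with a summed level of 26584 to 28996 in shControl, 22386 to 23863 in shH4 and 24795 to 27873 in shH6. Of 10 macrophage markers, Cd14 and Cd68 were listed, at 1074 to 1126, 600.2 to 656 and 545 to 603. Of 7 endothelial markers, Pecam1 and Cdh5 were listed, at 20.2 to 30.7 in shControl, 173 to 208 in shH4 and 26.01 to 31.2 in shH6. Of 9 fibroblast markers, Pdgfra alone was listed, which is among the genes described here, and of 6 lymphocyte markers, 0 were. The libraries came from dishes of a cultured line and not from a tissue, so these markers only check the labelled cell type. In a bulk library, fewer cells of a type and less RNA per cell cannot be told apart, and the part of these markers in the results was not tested.

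To determine how this signaling repertoire changed, each hairpin was compared with shControl. In shH4, 37 of the 69 genes were higher and 24 lower at a limma adjusted p-value under 0.05, beside 49.2% and 46.5% of all listed genes. In shH6, 39 were higher and 28 lower, beside 49.1% and 46.9%. Both hairpins called 36 higher (52.2%) and 23 lower (33.3%), beside 47.2% and 44.6% of all listed genes. The 10 others were called in 1 hairpin each: Il17rc and Il18 in shH4, and Epha2, Bmpr1a, Il15, Fzd4, Bmp4, Tnfrsf11a, Tnfrsf14 and Il12rb1 in shH6. In 58 genes all 6 knockdown libraries lay on one side of the 3 shControl libraries, 34 above and 24 below, a share of 84.1% beside 86.4% of all listed genes.

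The median size of the change was 1.33-fold for shH4 and 1.40-fold for shH6, beside 1.203-fold and 1.21-fold over all listed genes. A change of more than 1.5-fold in both hairpins was found for 13 of the 69 genes (18.8%), beside 9.02% of all listed genes. These were Cxcl1, Csf3, Sema3a, Tnfrsf9, Pdgfra, Wnt10b and Plxna4, which were higher, and Plxnb3, Il17rd, Inhbb, Erbb3, Tnfsf13 and Tnfaip8l1, which were lower. Among the listed genes, those at low levels changed by more, and the 69 genes had a median level of 473 normalized counts beside 947 for all listed genes. Below 500 normalized counts, 12 of 35 of them (34.3%) changed by more than 1.5-fold in both hairpins, beside 24.7% of all listed genes at such levels, and from 500 upward 1 of 34 did (2.94%), beside 1.66%. The exception at the higher level was Cxcl1. Standard errors were larger at low levels, so a choice of genes for differing from shControl would keep mainly larger changes there. The part of that choice in these shares was not tested.

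**Figure D1:**
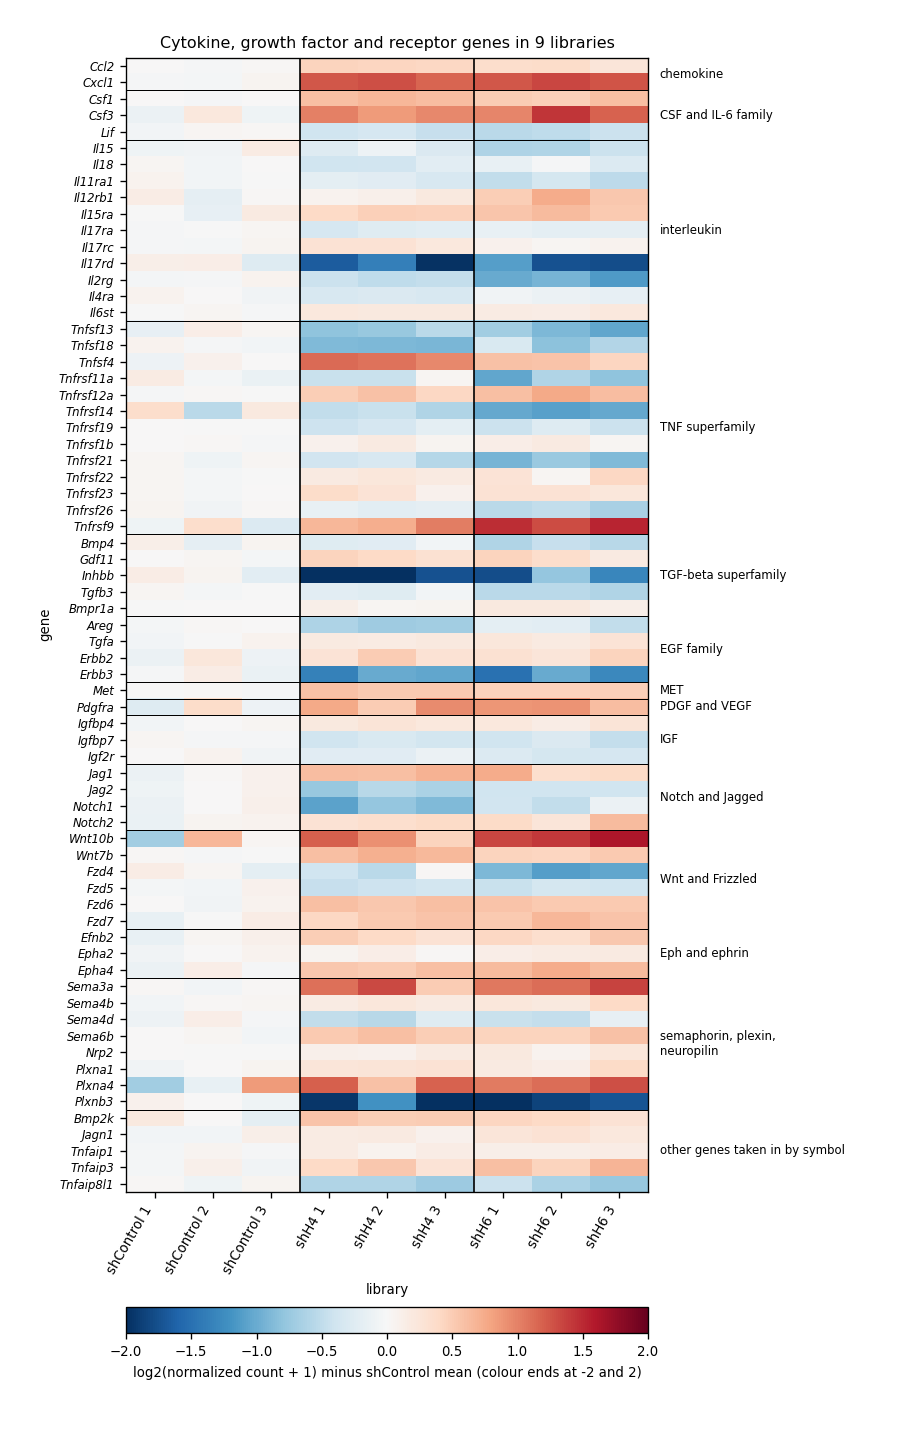
Each row is 1 of the 69 genes, grouped by family, and each column 1 of the 9 libraries; the color gives log2(normalized count + 1) minus the mean of the 3 shControl libraries, with red higher and blue lower. In 58 rows all 6 knockdown libraries lie on one side of the 3 shControl libraries, and the deepest colors include those of Cxcl1, Csf3, Tnfrsf9, Il17rd, Inhbb and Plxnb3.

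Chemokines and colony-stimulating factors draw and sustain myeloid cells. Both listed chemokines and 2 of the 3 listed genes of the colony-stimulating factor and IL-6 family rose in both hairpins, beside 47.2% of all listed genes. Cxcl1, a chemoattractant for neutrophils, was at normalized counts of 282, 279 and 299 in shControl, 681, 698 and 643 with shH4 and 682, 724 and 689.6 with shH6. Both knockdown groups sat far above every shControl library and overlapped each other. The log2 fold change was 1.23 in shH4 (limma, SE 0.061, adjusted p = 1.61e-10) and 1.28 in shH6 (SE 0.061, adjusted p = 1.23e-10). Ccl2, which attracts monocytes, was at 1650, 1619 and 1672 in shControl, 2232, 2229 and 2188 with shH4 and 2094, 2130 and 1957 with shH6. Every knockdown library exceeded every shControl library, with log2 fold changes of 0.43 and 0.32. By level per kilobase of transcript, Ccl2 was among the most abundant of the 69 genes at 1802 normalized counts per kb over the 9 libraries, against 296 for Cxcl1.

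Csf1, the growth factor of macrophages, was at normalized counts of 1572, 1528 and 1567 in shControl, 2368, 2475 and 2395 with shH4 and 2202, 2174 and 2367 with shH6. It was the most abundant of its family per kilobase (496 normalized counts per kb), its groups did not overlap with shControl, and the log2 fold change was 0.63 in shH4 (limma, SE 0.041, adjusted p = 3.56e-09) and 0.53 in shH6 (SE 0.041, adjusted p = 2.51e-08). Csf3, or G-CSF, the growth factor of neutrophils, was measured at 34.8, 43.9 and 35.4 in shControl, 76.9, 69.2 and 74.3 with shH4 and 75.7, 104 and 87.3 with shH6, lower counts with a wider relative spread. All 6 knockdown libraries were nonetheless above the 3 shControl libraries, and the log2 fold change was 0.94 in shH4 (limma, SE 0.15, adjusted p = 5.9e-05) and 1.20 in shH6 (SE 0.15, adjusted p = 5.19e-06). Lif, an IL-6 family cytokine that signals through gp130, went the other way, with 669.7, 711 and 707 in shControl, 525, 554 and 508 with shH4 and 480.4, 491 and 519 with shH6. Its knockdown libraries were all below shControl, and its log2 fold changes were −0.40 and −0.49. The listed macrophage markers Cd14 and Cd68 were lower in both hairpins, as given above.

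Promoters were examined because Cxcl1, Csf1, Csf3 and Ccl2 and several NF-κB regulators, described further on, were all higher in both hairpins. RefSeq windows (GRCm38.p6), from 250 bases before the start to 50 after it, were found for 55 of the 69 genes. Cxcl1 and Csf1 were among them but not Csf3 or Ccl2. The 10-base NF-κB consensus, searched on both strands, was present in 12 of the 65 windows of these 55 genes (18.5%). It was in 10.7% of 4834 windows of all listed genes and in 8.46% of 32851 windows of all promoters. Among genes higher in both hairpins it was in 8 of 34 windows (23.5%), those of Csf1, Cxcl1, Notch2, Sema4b, Tgfa, Tnfaip3, Tnfrsf9 and Wnt10b. Among those lower in both it was in 4 of 23 (17.4%), those of Fzd5, Il4ra, Lif and Tnfaip8l1. The motif was chosen after these rises were seen, and the part of NF-κB in them was not tested. The AP-1 motif TGANTCA, which reads the same on both strands, was in 8 of the 65 windows (12.3%), in 5.38% of those of all listed genes and in 7.81% of all promoter windows. A match is a description of letters and not a shown binding site. The 250 bases before the start are given for Cxcl1 and Csf1, each with a match, 5′ to 3′ on the strand of the gene, with the NF-κB consensus in capitals.
Cxcl1, chr5:90890995-90891244, plus strand: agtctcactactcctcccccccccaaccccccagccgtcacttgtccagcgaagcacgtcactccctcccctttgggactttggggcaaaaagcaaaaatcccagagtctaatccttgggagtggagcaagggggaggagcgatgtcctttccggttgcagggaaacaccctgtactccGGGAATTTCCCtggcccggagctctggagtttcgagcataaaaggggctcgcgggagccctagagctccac
Csf1, chr3:107760470-107760719, minus strand: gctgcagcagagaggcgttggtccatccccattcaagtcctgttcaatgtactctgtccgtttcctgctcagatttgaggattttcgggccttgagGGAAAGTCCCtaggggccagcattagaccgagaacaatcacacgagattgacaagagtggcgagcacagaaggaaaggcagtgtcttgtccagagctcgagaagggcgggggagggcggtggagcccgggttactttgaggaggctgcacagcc
In Cxcl1 the capitals are a pair of overlapping matches, 1 on each strand, 71 to 61 bases before the start. In Csf1 the single match lies 154 to 145 bases before the start, on the strand opposite to the gene.

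Of 11 listed interleukin and interleukin receptor genes, both hairpins called 2 higher (18.2%) and 5 lower (45.5%), beside 47.2% and 44.6% of all listed genes, so the share that fell was near that background. Il17rd, a member of the IL-17 receptor family also known as Sef, an inhibitor of fibroblast growth factor signaling, was at normalized counts of 90.9, 91.3 and 69.8 in shControl, 25.6, 31.9 and 20.5 with shH4 and 38.2, 24.1 and 23.7 with shH6. Every knockdown library was below 40 and every shControl library above 69, and the log2 fold change was −1.66 in shH4 (limma, SE 0.22, adjusted p = 6.72e-06) and −1.54 in shH6 (SE 0.22, adjusted p = 1.34e-05). The other IL-17 receptor chains changed by less: Il17ra fell by 0.26 in shH4 and 0.18 in shH6 on the log2 scale, and Il17rc passed the test in shH4, with a log2 fold change of 0.26 (limma, SE 0.047, adjusted p = 0.000128), and had 0.06 (limma, SE 0.047, adjusted p = 0.22) in shH6.

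Il2rg encodes the common γ chain that the receptors for IL-2, IL-4, IL-7 and IL-15 share. It was at 522, 532 and 564 in shControl, 399, 377 and 385 with shH4 and 266, 281 and 244 with shH6. The 3 groups formed 3 separate ranges, with shControl highest and shH6 lowest, and the log2 fold change was −0.48 in shH4 (limma, SE 0.07, adjusted p = 2.08e-05) and −1.03 in shH6 (SE 0.07, adjusted p = 6.39e-09). Il4ra, the partner of that chain in the IL-4 receptor, was lower in shH4 with a log2 fold change of −0.31 (limma, SE 0.046, adjusted p = 2.46e-05) and had −0.12 (limma, SE 0.046, adjusted p = 0.0262) in shH6. The shH6 call of Il4ra was lost without shControl replicate 1 (−0.083, limma adjusted p = 0.132), without shControl replicate 2 (−0.11, limma adjusted p = 0.0534) and without shH6 replicate 3 (−0.088, limma adjusted p = 0.0934), with adjusted p-values from 0.00384 to 0.132 over its 18 alternatives.

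Il15 and its receptor chain Il15ra had changes of opposite sign. Il15, a cytokine for NK and memory T cells, was at 153, 154 and 182 in shControl, 135, 152 and 133 with shH4 and 106, 107 and 119.7 with shH6, and its log2 fold change was −0.55 (limma, SE 0.11, adjusted p = 0.000266) in shH6 and −0.22 (limma, SE 0.11, adjusted p = 0.0647) in shH4. The shH4 value was −0.28 without shH4 replicate 2, where it passed (limma adjusted p = 0.042, range over the 18 alternatives 0.025 to 0.274), and −0.14 without shControl replicate 3 (limma adjusted p = 0.274). Il15ra, which presents IL-15 to neighboring cells, was at 215, 192 and 244 in shControl, 285, 301 and 296 with shH4 and 317, 337 and 312 with shH6. Its knockdown libraries were all above shControl, with log2 fold changes of 0.44 and 0.57. Il12rb1, the chain shared by the IL-12 and IL-23 receptors, was at 289.7, 232 and 268 in shControl, 275, 281 and 300.2 with shH4 and 370.2, 438 and 383 with shH6, so that shH4 lay within the range of shControl or close to it and shH6 lay above both, with log2 fold changes of 0.59 (limma, SE 0.09, adjusted p = 2.55e-05) in shH6 and 0.12 (limma, SE 0.09, adjusted p = 0.197) in shH4. The shH4 value of Il12rb1 ran from 0.034 without shControl replicate 2 (limma adjusted p = 0.713) to 0.19 without shControl replicate 1 (limma adjusted p = 0.0672).

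The most abundant gene of the interleukin class per kilobase was Il6st (493 normalized counts per kb), which encodes gp130, the receptor chain that IL-6, IL-11 and LIF share. Its counts were 3889, 4011 and 3855 in shControl, 4524, 4464 and 4489 with shH4 and 4379, 4359 and 4555 with shH6, with all knockdown libraries above all shControl libraries. The change was small, with a log2 fold change of 0.20 in shH4 (limma, SE 0.034, adjusted p = 7.73e-05) and 0.18 in shH6 (SE 0.034, adjusted p = 0.000189). Il11ra1, the specific chain of the IL-11 receptor, fell, with log2 fold changes of −0.25 and −0.46. Il18, an IL-1 family cytokine, was at 376, 354 and 370.0 in shControl, 278, 280.2 and 318 with shH4 and 331, 361 and 302 with shH6. Its log2 fold change was −0.33 (limma, SE 0.081, adjusted p = 0.00152) in shH4, where the libraries did not overlap with shControl, and −0.15 (limma, SE 0.081, adjusted p = 0.0845) in shH6, where 1 library lay within the shControl range. Without that library, shH6 replicate 2, the shH6 value of Il18 was −0.21 (limma adjusted p = 0.0301, range over the 18 alternatives 0.0297 to 0.33), and without shH6 replicate 3 it was −0.08 (limma adjusted p = 0.33).

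The TNF superfamily was the largest class, with 13 genes, and both hairpins called 6 higher (46.2%) and 5 lower (38.5%), near the 47.2% and 44.6% of all listed genes. Its ligands did not move together. Tnfsf4, or OX40 ligand, a costimulator of T cells, was at normalized counts of 243, 276 and 261 in shControl, 571, 551 and 509 with shH4 and 390.1, 386 and 352 with shH6. The 3 groups did not overlap, with shH4 highest, and the log2 fold change was 1.06 in shH4 (limma, SE 0.074, adjusted p = 8.91e-09) and 0.53 in shH6 (SE 0.074, adjusted p = 1.23e-05). Tnfsf18, or GITR ligand, another T cell costimulator that lies near Tnfsf4 on chromosome 1, was at 142, 134 and 131 in shControl, 72.9, 72.5 and 71.4 with shH4 and 109, 76.6 and 89.8 with shH6. All knockdown libraries were below shControl, and the log2 fold change was −0.90 in shH4 (limma, SE 0.13, adjusted p = 1.82e-05) and −0.57 in shH6 (SE 0.13, adjusted p = 0.000867). Tnfsf13, or APRIL, a survival factor of plasma cells, was at 27.8, 34.3 and 32.2 in shControl, 17.5, 18.1 and 21.3 with shH4 and 19.1, 16.4 and 14.7 with shH6. Its knockdown libraries were all below shControl, and the log2 fold change was −0.70 in shH4 (limma, SE 0.22, adjusted p = 0.00783) and −0.87 in shH6 (SE 0.22, adjusted p = 0.00183). The values of Tnfsf13, like those of Il11ra1, were not whole reads after scaling by the size factors. They are uncertain where reads could be shared with another gene.

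Among the receptors, Tnfrsf9, or CD137, a costimulatory receptor of T cells, was at 19.1, 26.1 and 16.6 in shControl, 32.5, 34.1 and 42.1 with shH4 and 58.1, 51.4 and 59.9 with shH6. Every knockdown library exceeded the shControl libraries, and the log2 fold change was 0.80 in shH4 (limma, SE 0.20, adjusted p = 0.00178) and 1.43 in shH6 (SE 0.20, adjusted p = 1.21e-05). Tnfrsf12a, the TWEAK receptor, was the most abundant of the class per kilobase (2051 normalized counts per kb), at 1498, 1534 and 1512 in shControl, 2140, 2280 and 2026 with shH4 and 2295, 2560 and 2318 with shH6. Its ranges did not overlap with shControl, and the log2 fold change was 0.50 in shH4 (limma, SE 0.049, adjusted p = 3.15e-07) and 0.66 in shH6 (SE 0.049, adjusted p = 1.73e-08). Tnfrsf21, or death receptor 6, was at 398, 366 and 398 in shControl, 298, 309.9 and 261 with shH4 and 203, 232 and 209 with shH6. The groups formed 3 separate ranges, with shH6 lowest, and the log2 fold change was −0.42 in shH4 (limma, SE 0.084, adjusted p = 0.000316) and −0.85 in shH6 (SE 0.084, adjusted p = 3.52e-07). Tnfrsf19, or TROY, also fell, with log2 fold changes of −0.31 and −0.37.

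Tnfrsf11a, or RANK, the receptor for RANK ligand in the mammary gland and in bone, was at 84.05, 73.5 and 68.7 in shControl, 55.2, 54.95 and 77.3 with shH4 and 35.95, 49.3 and 42.4 with shH6. It was lower in shH6, where no library overlapped with shControl, with a log2 fold change of −0.82 (limma, SE 0.17, adjusted p = 0.000457), while in shH4 it had −0.28 (limma, SE 0.17, adjusted p = 0.123), and −0.44 (limma adjusted p = 0.03, range over the 18 alternatives 0.03 to 0.329) without shH4 replicate 3. Tnfrsf14, or HVEM, had 27.3, 14.2 and 24.4 in shControl, 14.8, 15.4 and 13.7 with shH4 and 9.94, 9.44 and 9.98 with shH6, with 1 shControl library as low as the shH4 libraries. Its log2 fold change was −1.04 (limma, SE 0.28, adjusted p = 0.00282) in shH6 and −0.51 (limma, SE 0.28, adjusted p = 0.0908) in shH4, where it was −0.78 (limma adjusted p = 0.0194, range over its 17 alternatives 0.0194 to 0.334) without shControl replicate 2 and −0.33 (limma adjusted p = 0.334) without shControl replicate 1. Tnfrsf1b, the second TNF receptor, changed by little, with log2 fold changes of 0.11 in shH4 (limma, SE 0.045, adjusted p = 0.0269) and 0.11 in shH6 (SE 0.045, adjusted p = 0.024). Leaving out single libraries ended its calls: without shControl replicate 3 it was 0.096 (limma adjusted p = 0.0894) in shH4 and 0.099 (limma adjusted p = 0.0824) in shH6, without shControl replicate 1 or shH4 replicate 2 it was 0.11 and 0.076 in shH4 (limma adjusted p = 0.0513 and 0.135), and without shH6 replicate 1 or 2 it was 0.11 and 0.083 in shH6 (limma adjusted p = 0.0656 and 0.11). These p-values of Tnfrsf1b ran from 0.00581 to 0.292 in shH4 and from 0.00121 to 0.195 in shH6 over the 18 alternatives.

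Tnfrsf22, Tnfrsf23 and Tnfrsf26 are similar neighboring genes on chromosome 7, and their values are uncertain where reads could be shared among them. Tnfrsf26, a receptor of the same family, was at 2738, 2523 and 2693 in shControl, 2397, 2292 and 2335 with shH4 and 1816, 1893 and 1691 with shH6 and had log2 fold changes of −0.18 and −0.56. Tnfrsf22 and Tnfrsf23, which encode decoy receptors for TRAIL, were higher by 0.19 and 0.25 and by 0.24 and 0.27 on the log2 scale. The calls of Tnfrsf22 were lost in shH4 without shControl replicate 2 (0.17, limma adjusted p = 0.0738), shControl replicate 3 (0.19, limma adjusted p = 0.0586) or shH4 replicate 2 (0.17, limma adjusted p = 0.0786), and in shH6 without shH6 replicate 3 (0.16, limma adjusted p = 0.0506). Over its 18 alternatives the adjusted p-value ran from 0.00919 to 0.125 in shH4 and from 0.00043 to 0.0506 in shH6.

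**Figure D2:**
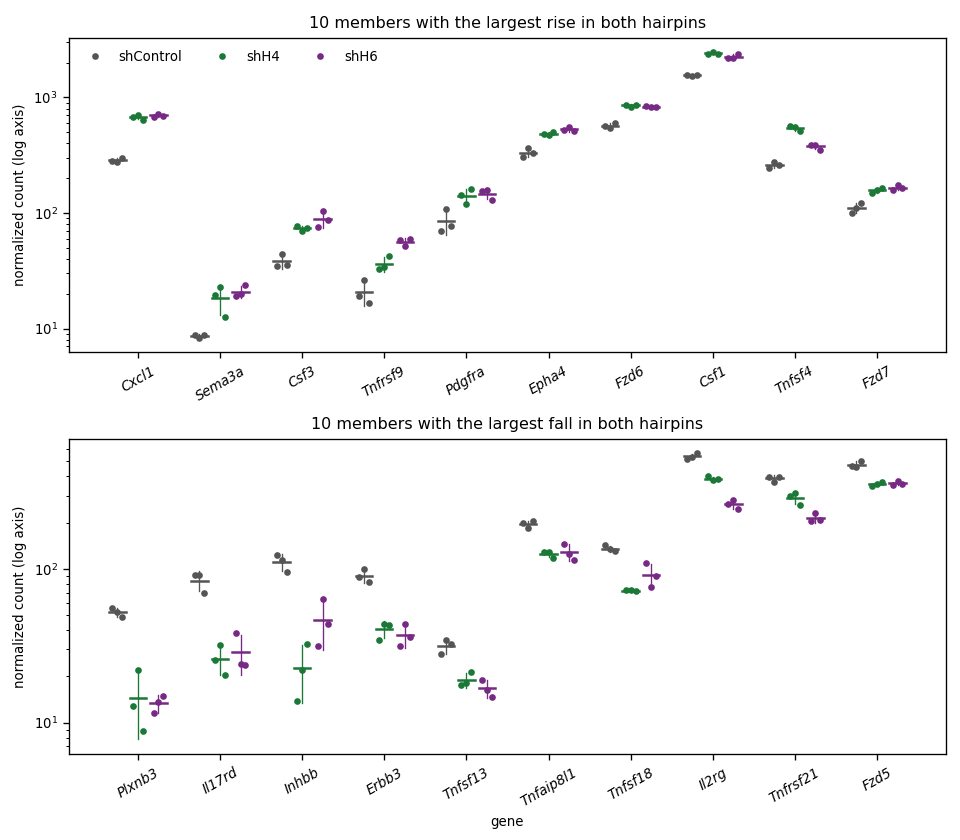
Points are the normalized counts of single libraries on a log axis for the 10 genes with the largest rise (top) and the 10 with the largest fall (bottom) with both hairpins, ordered by whichever hairpin changed less; horizontal bars are group means and vertical bars 1 SD (n = 3). The knockdown points of each gene lie wholly above or wholly below those of shControl, since the genes were chosen for that, and the shH4 and shH6 points do not overlap either for Tnfrsf9, Epha4, Csf1, Tnfsf4, Tnfsf18, Il2rg and Tnfrsf21, as for 24.8% of all listed genes.

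Of the 5 listed TGF-β superfamily genes, both hairpins called 1 higher and 2 lower, beside 47.2% and 44.6% of all listed genes. Inhbb encodes the βB subunit from which activin B and inhibin B are built. It was at normalized counts of 122, 114 and 95.3 in shControl, 13.8, 21.98 and 32.3 with shH4 and 31.4, 64.01 and 43.6 with shH6. The knockdown libraries were all below shControl, shH4 replicate 3 and shH6 replicate 1 were close to each other, and the log2 fold change was −2.30 in shH4 (limma, SE 0.27, adjusted p = 1.83e-06) and −1.29 in shH6 (SE 0.27, adjusted p = 0.000401). Tgfb3, a TGF-β isoform, was the other ligand that fell, at 1512, 1446 and 1478 in shControl, 1281, 1255 and 1430 with shH4 and 1022, 1021 and 976 with shH6. Its groups formed 3 separate ranges with shH6 lowest, and the log2 fold change was −0.16 in shH4 (limma, SE 0.051, adjusted p = 0.0069) and −0.55 in shH6 (SE 0.051, adjusted p = 1.57e-07). Bmp4, a bone morphogenetic protein, was at 151, 122 and 144 in shControl, 117, 119 and 133 with shH4 and 91.03, 101 and 93.5 with shH6, with shH4 overlapping shControl and shH6 below both, and log2 fold changes of −0.54 (limma, SE 0.11, adjusted p = 0.000474) in shH6 and −0.17 (limma, SE 0.11, adjusted p = 0.151) in shH4. The shH4 value of Bmp4 ran from −0.26 without shControl replicate 2 (limma adjusted p = 0.0521) to −0.11 without shControl replicate 1 (limma adjusted p = 0.419). Gdf11, a ligand of activin receptors, rose, with log2 fold changes of 0.39 and 0.33. Bmpr1a, a type I BMP receptor and the most abundant of these genes per kilobase (503 normalized counts per kb), was at 2813, 2848 and 2839 in shControl, 3061, 2917 and 2936 with shH4 and 3237, 3246 and 3063 with shH6. Its knockdown libraries were above shControl by a small margin, and the log2 fold change was 0.17 (limma, SE 0.037, adjusted p = 0.000629) in shH6 and 0.07 (limma, SE 0.037, adjusted p = 0.0818) in shH4.

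Growth factor receptors with tyrosine kinase activity included both directions. Erbb3, the HER3 receptor that binds neuregulin and pairs with HER2, was at normalized counts of 88.1, 99.6 and 81.97 in shControl, 34.5, 43.96 and 43.03 with shH4 and 31.4, 44.1 and 36.2 with shH6. No knockdown library reached the level of any shControl library, and the log2 fold change was −1.13 in shH4 (limma, SE 0.17, adjusted p = 2.45e-05) and −1.26 in shH6 (SE 0.17, adjusted p = 8.38e-06). Erbb2, which encodes HER2, was higher, at 623, 795 and 630.3 in shControl, 817, 963 and 827 with shH4 and 838, 799.5 and 925 with shH6, with a log2 fold change of 0.35 in shH4 (limma, SE 0.087, adjusted p = 0.00154) and 0.33 in shH6 (SE 0.087, adjusted p = 0.00237) and 1 shControl library close to the knockdown range. The ratio of Erbb2 to Erbb3 per kilobase ran from 8.48 to 9.59 in shControl, 23.1 to 28.4 in shH4 and 21.8 to 32.1 in shH6. Met, the receptor of hepatocyte growth factor, was at 6367, 6531 and 6296 in shControl, 9569, 9231 and 9191 with shH4 and 8828, 8849 and 8920 with shH6. It was one of the most abundant of the 69 genes (1204 normalized counts per kb), its ranges did not overlap with shControl, and it rose with log2 fold changes of 0.54 in shH4 (limma, SE 0.032, adjusted p = 1.43e-09) and 0.47 in shH6 (SE 0.032, adjusted p = 6.07e-09). Pdgfra, the PDGF receptor α, a marker of fibroblasts, was at 69.7, 108 and 77.5 in shControl, 142, 119 and 162 with shH4 and 155, 157 and 128 with shH6. The knockdown libraries were above shControl, though shControl replicate 2 came close to shH4 replicate 2, and the log2 fold change was 0.74 in shH4 (limma, SE 0.16, adjusted p = 0.000477) and 0.80 in shH6 (SE 0.16, adjusted p = 0.000231).

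The ligands of the EGF receptor moved apart. Areg, or amphiregulin, the main EGF family ligand of the developing mammary duct and the most abundant of its class per kilobase (672 normalized counts per kb), was at 979.9, 1020 and 1009 in shControl, 654, 612 and 620.0 with shH4 and 876, 864 and 709.5 with shH6. Its groups formed 3 separate ranges with shH4 lowest, and the log2 fold change was −0.67 in shH4 (limma, SE 0.068, adjusted p = 4.56e-07) and −0.30 in shH6 (SE 0.068, adjusted p = 0.000775). Tgfa, another ligand of the same receptor, was at 1934, 1996 and 2106 in shControl, 2281, 2245 and 2299 with shH4 and 2361, 2283 and 2423 with shH6, with all knockdown libraries above shControl and log2 fold changes of 0.18 and 0.23. The ratio of Tgfa to Areg per kilobase was 0.526 to 0.560 in shControl, 0.935 to 0.995 in shH4 and 0.71 to 0.916 in shH6.

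In the IGF system, Igfbp4, which binds IGFs outside the cell, had the highest level per kilobase of all 69 genes (2864 normalized counts per kb). Its counts were 9558, 9991 and 10162 in shControl, 11354, 11896 and 11452 with shH4 and 11518, 10944 and 11870 with shH6. Each knockdown library exceeded each shControl library, and the log2 fold change was 0.22 in shH4 (limma, SE 0.038, adjusted p = 6.7e-05) and 0.21 in shH6 (SE 0.038, adjusted p = 0.000125). Igfbp7, a related binding protein, fell, with log2 fold changes of −0.36 and −0.39, and so did Igf2r, which takes up and clears IGF-II, with −0.20 and −0.32. Igf2r held the highest counts of the 69 genes, at 20888, 21742 and 19757 in shControl, 17666, 17695 and 19101 with shH4 and 17212, 16244 and 16495 with shH6.

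Notch signaling joins receptors and ligands on neighboring cells, and each of its listed pairs split. Notch1 was at normalized counts of 1062, 1152 and 1238 in shControl, 548, 674 and 625 with shH4 and 881, 815 and 1061 with shH6. All knockdown libraries were below shControl, although shH6 replicate 3 all but reached shControl replicate 1, and the log2 fold change was −0.90 in shH4 (limma, SE 0.088, adjusted p = 2.99e-07) and −0.33 in shH6 (SE 0.088, adjusted p = 0.00262). Notch2 was at 2087, 2380 and 2397 in shControl, 2801, 2888 and 2973 with shH4 and 2967, 2702 and 3526 with shH6, with every knockdown library above shControl, and log2 fold changes of 0.34 in shH4 (limma, SE 0.072, adjusted p = 0.000536) and 0.42 in shH6 (SE 0.072, adjusted p = 9.11e-05). The ratio of Notch2 to Notch1 per kilobase was 1.75 to 1.87 in shControl, 3.87 to 4.62 in shH4 and 2.995 to 3.04 in shH6, so the 3 groups did not overlap in it. Jag2, the more abundant ligand per kilobase (387 normalized counts per kb), was at 2330, 2472 and 2614 in shControl, 1464, 1683 and 1595 with shH4 and 1882, 1874 and 1877 with shH6. It formed 3 separate ranges with shH4 lowest, and the log2 fold change was −0.65 in shH4 (limma, SE 0.051, adjusted p = 3.19e-08) and −0.40 in shH6 (SE 0.051, adjusted p = 5.3e-06). Jag1 was at 172, 189.7 and 198 in shControl, 285, 284 and 303 with shH4 and 312, 234 and 243 with shH6, above shControl in all knockdown libraries, with log2 fold changes of 0.64 in shH4 (limma, SE 0.10, adjusted p = 4.52e-05) and 0.48 in shH6 (SE 0.10, adjusted p = 0.00046).

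Both listed Wnt ligands rose in both hairpins, beside 47.2% of all listed genes, and their Frizzled receptors split. Wnt7b, the most abundant of the class per kilobase (345 normalized counts per kb), was at 901, 878 and 887 in shControl, 1348, 1453 and 1393 with shH4 and 1206, 1192 and 1284 with shH6. The 3 groups did not overlap, with shH4 highest, and the log2 fold change was 0.65 in shH4 (limma, SE 0.047, adjusted p = 1.1e-08) and 0.46 in shH6 (SE 0.047, adjusted p = 4.06e-07). Wnt10b, a ligand of the early mammary bud, was at 12.3, 33.2 and 21.05 in shControl, 48.3, 39.6 and 28.4 with shH4 and 53.5, 56.7 and 64.8 with shH6, with shControl replicate 2 inside the shH4 range. Its log2 fold change was 0.85 in shH4 (limma, SE 0.28, adjusted p = 0.00918) and 1.46 in shH6 (SE 0.28, adjusted p = 0.000201), and in shH4 it was 0.501 (limma adjusted p = 0.0638) without shControl replicate 1 and 0.68 (limma adjusted p = 0.0518) without shH4 replicate 1, with adjusted p-values between 0.0007 and 0.0638 over the 18 alternatives.

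Fzd6, a Frizzled receptor of planar polarity signaling, was at 569, 541 and 595 in shControl, 864, 826 and 866 with shH4 and 844, 818 and 821 with shH6, above shControl in all knockdown libraries, with log2 fold changes of 0.58 in shH4 (limma, SE 0.053, adjusted p = 1.29e-07) and 0.54 in shH6 (SE 0.053, adjusted p = 2.89e-07). Fzd7, at 99.8, 110.3 and 122 in shControl, 148, 159 and 163 with shH4 and 158, 175 and 163 with shH6, also lay above shControl in all knockdown libraries, with 0.50 in shH4 (limma, SE 0.10, adjusted p = 0.000415) and 0.58 in shH6 (SE 0.10, adjusted p = 0.000117). Fzd5 was at 464, 460.4 and 504 in shControl, 345, 357 and 370.1 with shH4 and 350.4, 374 and 359 with shH6. It was below shControl in all knockdown libraries, with a log2 fold change of −0.41 in shH4 (limma, SE 0.066, adjusted p = 4.65e-05) and −0.40 in shH6 (SE 0.066, adjusted p = 6.23e-05), and the ratio of Fzd6 to Fzd5 per kilobase was 1.88 to 1.96 in shControl, 3.70 to 4.004 in shH4 and 3.50 to 3.85 in shH6. Fzd4, which is also the receptor of norrin, was at 163, 152 and 128 in shControl, 111, 101 and 149.6 with shH4 and 78.03, 68.2 and 71.1 with shH6. Its shH6 libraries were below all others and its shH4 range reached into that of shControl, with log2 fold changes of −1.01 (limma, SE 0.14, adjusted p = 1.26e-05) in shH6 and −0.30 (limma, SE 0.14, adjusted p = 0.0522) in shH4. The shH4 value of Fzd4 passed the test without shControl replicate 3 (−0.40, limma adjusted p = 0.0275) and without shH4 replicate 3 (−0.47, limma adjusted p = 0.00647). Without shH4 replicate 2 it was −0.19 (limma adjusted p = 0.24), and the adjusted p-values of the 18 alternatives lay between 0.00647 and 0.24.

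The guidance genes comprised the Eph and ephrin family and the semaphorins with their receptors. Of 3 listed Eph and ephrin genes, 2 were called higher in both hairpins, beside 47.2% of all listed genes, and Epha2 in shH6 alone. Epha4, an ephrin receptor, was at normalized counts of 305, 365 and 328 in shControl, 485, 471 and 502 with shH4 and 518, 557 and 514 with shH6, clear of shControl in every knockdown library, and its log2 fold change was 0.55 in shH4 (limma, SE 0.072, adjusted p = 6.28e-06) and 0.67 in shH6 (SE 0.072, adjusted p = 7.23e-07). Efnb2, or ephrin B2, rose by 0.39 and 0.43 on the log2 scale. Epha2, the most abundant of these per kilobase (964 normalized counts per kb), was at 3396, 3580 and 3748 in shControl, 3705, 3900 and 3628 with shH4 and 3913, 4015 and 4058 with shH6. Some of its shH4 libraries lay within the shControl range, and its log2 fold change was 0.16 (limma, SE 0.041, adjusted p = 0.00178) in shH6 and 0.07 (limma, SE 0.041, adjusted p = 0.119) in shH4, where it was 0.10 (limma adjusted p = 0.041, range over the 18 alternatives 0.0326 to 0.879) without shControl replicate 3, 0.031 (limma adjusted p = 0.483) without shControl replicate 1 and 0.038 (limma adjusted p = 0.405) without shH4 replicate 2.

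Of 8 semaphorin, plexin and neuropilin genes, both hairpins called 6 higher and 2 lower, beside 47.2% and 44.6% of all listed genes, and the difference from that background was not tested. Sema3a, a secreted semaphorin that repels axons, was at 8.88, 8.298 and 8.86 in shControl, 19.7, 23.1 and 12.7 with shH4 and 19.1, 19.9 and 23.7 with shH6, among the lowest levels of all 69 genes per kilobase (2.704 normalized counts per kb). Every knockdown library was above shControl, the hairpins overlapped each other, and the log2 fold change was 0.97 in shH4 (limma, SE 0.28, adjusted p = 0.0039) and 1.17 in shH6 (SE 0.28, adjusted p = 0.00102). Of the membrane-bound semaphorins, Sema6b and Sema4b rose, with log2 fold changes of 0.53 and 0.49 and 0.19 and 0.27, and Sema4d, the ligand of plexin B1, fell, with −0.43 and −0.36. Plxnb3, the receptor of Sema5a, was at 55.3, 52.2 and 48.7 in shControl, 12.8, 21.98 and 8.802 with shH4 and 11.5, 13.6 and 14.96 with shH6. Every knockdown library was far below the shControl libraries, and the log2 fold change was −1.86 in shH4 (limma, SE 0.28, adjusted p = 2.29e-05) and −1.89 in shH6 (SE 0.28, adjusted p = 1.86e-05). By the smaller of its 2 changes this was the largest fall among the 69 genes. Nrp2, a co-receptor of class 3 semaphorins and of VEGF-C, was the most abundant of the class per kilobase (591 normalized counts per kb), at 3738, 3701 and 3690 in shControl, 4001, 3947 and 4207 with shH4 and 4242, 3912 and 4320 with shH6. It was above shControl in all knockdown libraries by a small margin, with log2 fold changes of 0.13 in shH4 (limma, SE 0.04, adjusted p = 0.00788) and 0.16 in shH6 (SE 0.04, adjusted p = 0.00148). Plxna1 rose by 0.27 and 0.23 on the log2 scale. Plxna4 was at 6.15, 9.48 and 19.9 in shControl, 25.6, 16.5 and 25.4 with shH4 and 22.9, 24.1 and 27.4 with shH6, with shControl replicate 3 inside the shH4 range. Its log2 fold change was 0.99 in shH4 (limma, SE 0.33, adjusted p = 0.0105) and 1.15 in shH6 (SE 0.33, adjusted p = 0.00423), and without shControl replicate 1 the shH4 value was 0.64 (limma adjusted p = 0.0683, range over its 17 alternatives 0.000783 to 0.0683).

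The 5 genes that carry a matching symbol only were Tnfaip3, Tnfaip1, Tnfaip8l1, Bmp2k and Jagn1. Tnfaip3 encodes A20, an inhibitor of NF-κB that NF-κB itself induces. It was at 155, 169.5 and 152 in shControl, 209, 231 and 192 with shH4 and 240.2, 217 and 254 with shH6, above shControl in all knockdown libraries, with log2 fold changes of 0.40 in shH4 (limma, SE 0.10, adjusted p = 0.00129) and 0.57 in shH6 (SE 0.10, adjusted p = 6.5e-05). Tnfaip8l1, of the TNFAIP8 family, was at 199.5, 184 and 204 in shControl, 128, 129 and 118 with shH4 and 145, 126 and 115 with shH6. The knockdown libraries were all below shControl, and the log2 fold change was −0.64 in shH4 (limma, SE 0.11, adjusted p = 6.02e-05) and −0.61 in shH6 (SE 0.11, adjusted p = 9.7e-05). Tnfaip1, the most abundant of these per kilobase (490.0 normalized counts per kb), was at 1697, 1802 and 1719 in shControl, 1948, 1831 and 1932 with shH4 and 1879, 1887 and 1922 with shH6, with small log2 fold changes of 0.13 in shH4 (limma, SE 0.041, adjusted p = 0.00713) and 0.12 in shH6 (SE 0.041, adjusted p = 0.0089). Bmp2k, a kinase, had 0.52 and 0.37, and Jagn1, a protein of the endoplasmic reticulum, had 0.14 and 0.25. The shH4 call of Jagn1 was lost without shControl replicate 1 or 2 (0.11 each, limma adjusted p = 0.0871 and 0.0858) and without shH4 replicate 1 or 2 (0.13 each, limma adjusted p = 0.0609 and 0.0684), with adjusted p-values between 0.00387 and 0.155 over the 18 alternatives.

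The direct comparison of shH6 with shH4 was read next. The libraries of the hairpins did not overlap in 33 of the 69 genes (47.8%), beside 24.8% of all listed genes. Of the 69 genes, 6 were higher and 8 lower in shH6 than in shH4, beside 3.89% and 4.38% of all listed genes. In 8 of these 14 genes the change from shControl was larger in shH4, and in 6 it was larger in shH6. The listed endothelial markers Pecam1 and Cdh5 were higher in shH4 than in the other groups, as given above, and Resf1 was lower in shH4 than in shH6, by a log2 difference of 0.19 (limma, SE 0.043, adjusted p = 0.00984). The part of either in these differences was not tested.

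The genes higher in shH6 were led by Inhbb, with a difference of 1.02 (limma, SE 0.27, adjusted p = 0.0241) on the log2 scale, and Notch1, with 0.57 (limma, SE 0.088, adjusted p = 0.000622). For Notch1 every shH6 library was above every shH4 library, while for Inhbb 1 shH6 library lay within the shH4 range. The Inhbb call did not hold without shH4 replicate 1 (0.72, limma adjusted p = 0.124), shH4 replicate 2 (1.03, limma adjusted p = 0.0577) or shH6 replicate 2 (0.76, limma adjusted p = 0.114), and its adjusted p-value ran from 0.00973 to 0.124 over the 18 alternatives. Il12rb1 followed with 0.47 (limma, SE 0.09, adjusted p = 0.00336), Areg with 0.37 (limma, SE 0.068, adjusted p = 0.0026) and Jag2 with 0.25 (limma, SE 0.051, adjusted p = 0.0052), all 3 without overlap between the hairpins. Il4ra, at 0.19, was the sixth, and its call was lost without shH4 replicate 1 (0.19, limma adjusted p = 0.0511) and without shH6 replicate 1 (0.17, limma adjusted p = 0.0807), with adjusted p-values between 0.00134 and 0.0807 over the 18 alternatives.

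Fzd4 was the furthest below shH4 in shH6, with −0.71 (limma, SE 0.14, adjusted p = 0.00473), followed by Il2rg with −0.55 (limma, SE 0.07, adjusted p = 0.000113) and Tnfsf4 with −0.53 (limma, SE 0.074, adjusted p = 0.000304). Tnfrsf21 had −0.43 (limma, SE 0.084, adjusted p = 0.00428) and Tgfb3 had −0.39 (limma, SE 0.051, adjusted p = 0.000141). The shH6 libraries of these 5 genes all lay below the shH4 libraries. Tnfsf4 had risen in both hairpins and the other 4 had fallen or were lower in both. The remaining 3 were Tnfrsf26 (−0.38), Il17rc (−0.20) and Wnt7b (−0.19). The call of Il17rc was lost without shH4 replicate 1 (−0.19, limma adjusted p = 0.0537, range over the 18 alternatives 0.00583 to 0.0537). That of Wnt7b was lost without shH4 replicate 2 (−0.16, limma adjusted p = 0.0791), shH4 replicate 3 (−0.19, limma adjusted p = 0.0518), shH6 replicate 1 (−0.18, limma adjusted p = 0.0785) or shH6 replicate 2 (−0.17, limma adjusted p = 0.0757), with adjusted p-values between 0.00197 and 0.0791 over the 18 alternatives.

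**Figure D3:**
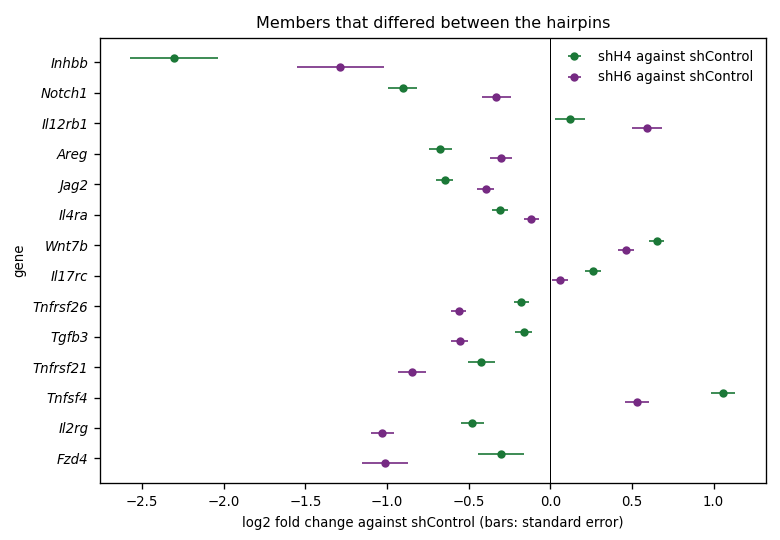
Points are the log2 fold changes against shControl of the 14 genes called between shH6 and shH4, in shH4 (green) and shH6 (purple), with bars for 1 standard error; genes are ordered by the difference, with those higher in shH6 at the top. The 2 points of each gene lie on the same side of 0, and those of Inhbb (−2.30 and −1.29) and Fzd4 (−0.30 and −1.01) are the farthest apart.

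Genes that carry the signal inside the cell were read from 6 lists of pathway components. The NF-κB list had 14 of its 36 genes in the table, and both hairpins called 9 higher and 3 lower, beside 47.2% and 44.6% of all listed genes. The list had a median log2 fold change of 0.30 in shH4 and 0.31 in shH6, beside 0.096 and 0.088 over all listed genes. Those that rose included inhibitors and subunits of NF-κB itself. Nfkbie, or IκBε, was at normalized counts of 26.6, 35.6 and 19.9 in shControl, 72.9, 58.2 and 55.7 with shH4 and 67.3, 73.4 and 69.8 with shH6, with every knockdown library above shControl and log2 fold changes of 1.18 in shH4 (limma, SE 0.19, adjusted p = 5.36e-05) and 1.36 in shH6 (SE 0.19, adjusted p = 1.32e-05). Traf3, an adaptor of TNF receptors that restrains non-canonical NF-κB, was at 637, 597 and 659 in shControl, 1003, 1056 and 1038 with shH4 and 964, 984 and 1029 with shH6, with log2 fold changes of 0.71 and 0.65. Nfkbia, or IκBα, had a mean of 828 in shControl, 1298 with shH4 and 1297 with shH6 and the subunit gene Relb 132 in shControl, 199 with shH4 and 214 with shH6; their log2 fold changes were 0.65 and 0.65, and 0.59 and 0.69. The 3 that fell in both were Tradd and Irak2, adaptors of TNF and Toll-like receptor signaling, with −0.24 and −0.31 and −0.19 and −0.22, and the kinase gene Ikbke. Nfkbia, Relb and Ikbke were chosen after their values were seen.

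The other lists are given by their counts and their named genes, and the same background of 47.2% higher and 44.6% lower holds for each. For JAK-STAT, 8 of 26 genes were listed, with 3 higher and 4 lower in both hairpins. Socs5, an inhibitor of cytokine signaling, and Ptpn11, which encodes the phosphatase SHP2, rose, by 0.23 and 0.15 and by 0.18 and 0.11 on the log2 scale, while Stat2, a factor of interferon signaling, and Socs2, another such inhibitor, fell, with −0.34 and −0.38 and −0.30 and −0.58. For TGF-β and BMP, 8 of 39 were listed, with 3 higher and 4 lower. Ltbp1, which holds latent TGF-β in the matrix, rose, with means of 1293 in shControl, 1843 with shH4 and 2018 with shH6, with log2 fold changes of 0.51 and 0.64, and Smad7, an inhibitor of the pathway, had 0.33 and 0.24. Acvr1b, an activin receptor, and Id3, a target of BMP signaling, fell, with −0.18 and −0.40 and −0.16 and −0.15. The count of 7 in this list was 3 without shControl replicate 3 and 4 without shH4 replicate 1.

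For Wnt, 10 of 44 genes were listed, with 6 higher and 3 lower in both hairpins, and 4 in all after upper quartile scaling. Lgr6, a receptor of R-spondins, had means of 182 in shControl, 225 with shH4 and 326 with shH6 and log2 fold changes of 0.30 and 0.84, and Pygo2, a β-catenin cofactor, had 0.15 and 0.27. Dvl1, a Dishevelled gene, fell, with −0.55 and −0.28, as did Wls, which carries Wnt ligands to the cell surface, with −0.12 and −0.17. For Notch, 14 of 35 were listed, with 5 higher and 8 lower. Rfng, a glycosyltransferase that modifies Notch receptors, was at 119, 126 and 144 in shControl, 235, 295 and 276 with shH4 and 273, 259 and 292 with shH6, and rose with log2 fold changes of 1.04 in shH4 (limma, SE 0.10, adjusted p = 2.99e-07) and 1.08 in shH6 (SE 0.10, adjusted p = 2.04e-07). Maml1, a coactivator of Notch, also rose, with 0.75 and 0.73. Aph1b, a component of γ-secretase, was at 71.4, 55.3 and 85.4 in shControl, 41.9, 31.1 and 29.1 with shH4 and 34.5, 22.2 and 20.6 with shH6, with log2 fold changes of −1.03 and −1.44, and the ligand Dll4, known from vessels, was at 51.9, 42.7 and 29.9 in shControl, 18.7, 17.6 and 26.4 with shH4 and 23.7, 27.3 and 23.7 with shH6, with −0.94 and −0.68. Both fell, and no knockdown library of either reached shControl. For the adaptors and feedback regulators of receptor tyrosine kinases, 12 of 40 were listed, with 4 higher and 5 lower. Crkl and Frs2 rose by 0.25 and 0.25 and by 0.17 and 0.16 on the log2 scale, and Gab2 and Frs3 fell, with −0.39 and −0.46 and −0.54 and −0.60.

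**Figure D4:**
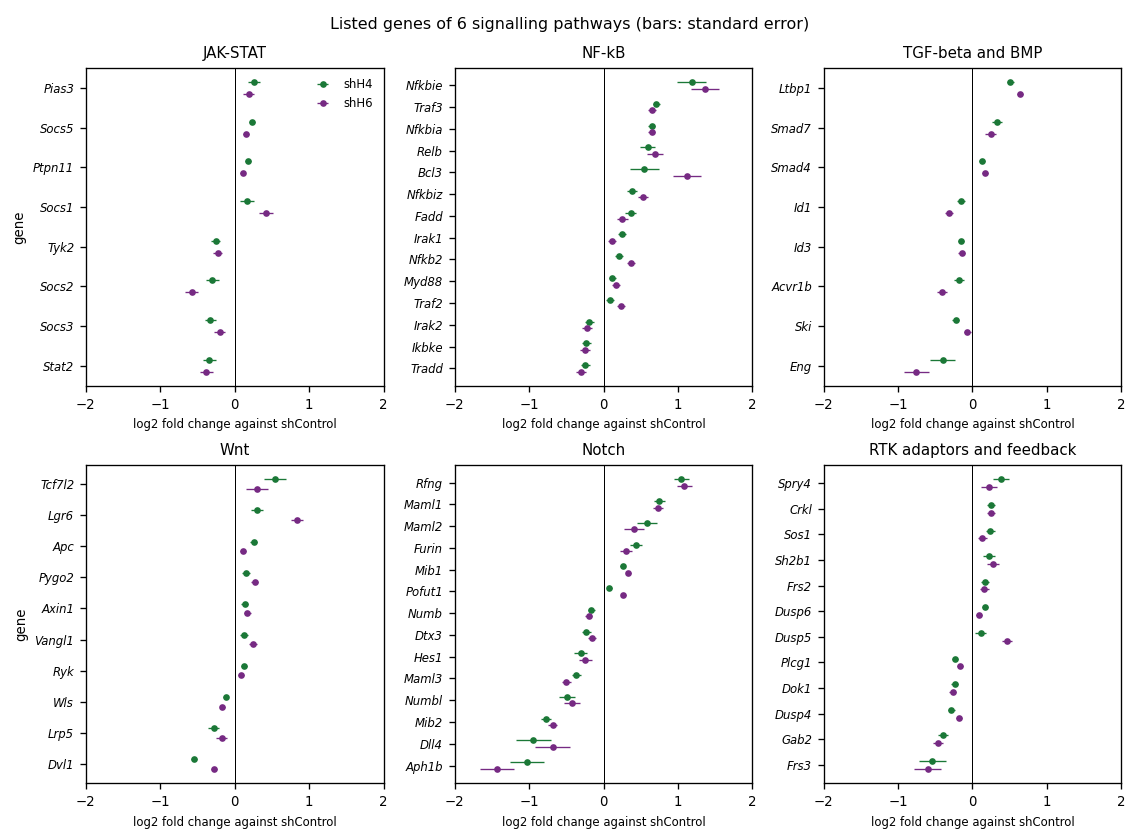
Each panel is 1 of 6 pathway lists, and each row a listed gene with its log2 fold change against shControl in shH4 (green) and shH6 (purple), with bars for 1 standard error. In the NF-κB panel 11 of 14 genes lie above 0 in both hairpins, and the Notch panel holds genes at both ends, from Rfng (1.04 and 1.08) to Aph1b (−1.03 and −1.44).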

How the data were processed

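RNA-seq libraries (stranded total RNA kit) were made from 9 dishes of 6DT1 cells. According to the submitters' processing notes and the study's methods, the authors used STAR 2.7.8a within Partek Flow on build mm39, a median-ratio normalization, and DESeq2 for their tests. How reads were counted, and whether by strand, is not given in the sources used here, so a gene and an antisense neighbor cannot be told apart. The deposited values are a signal per gene, normalized counts that are not whole reads: of the values between 0.5 and 150, 72.9 to 77.7% per library (656 to 721 values) lay within 0.03 reads of a whole number after multiplication by the best size factor, so no count test was run. 0 value columns were left unused.

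The test was limma 3.58.1 (R 4.3.3) on log2(value + 1), with 1 mean per group over all 9 libraries, empirical Bayes moderation with a trend, and Benjamini-Hochberg adjustment over all 5301 genes. The fit was also run on simulated data, in which few genes changed and none were picked for changing. That setting differs from the listed genes, so it does not gauge the calls made here. Depth is the estimated reads in listed genes, and replicates differed beyond sampling noise in every pair. Symbols, chromosomes and transcript lengths came from GENCODE M21, of which 5258 identifiers matched. That annotation is on GRCm38, another build than mm39, so only RefSeq promoter windows carry coordinates.

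Members and lists were chosen with earlier results of these data known. Every member is named. Values in every library are given for the 10 members with the largest rise and the 10 with the largest fall (called in both hairpins, all 6 knockdown libraries on one side), for the 5 highest and 5 lowest in shH6 relative to shH4 among those called, and for the member with the highest level per kb in each class of 3 or more. Others were added for their families. For each pathway list the 2 largest rises and 2 largest falls are named among genes called in both hairpins with all 6 knockdown libraries on one side, ranked by the smaller change. Larger changes with overlapping libraries, such as that of Eng, are therefore not named. Alternatives were pseudocounts 0.5 and 5, a minimum of 10 normalized counts, fits of 2 groups, the replicate block, each library left out, upper quartile and column total scaling, library weights and no trend.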

Additional observations from a re-analysis of the deposited data

Results flagged for a closer look

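The following 14 results stood out because the change from shControl differed between the hairpins in a direct test of shH6 against shH4 (limma, adjusted p under 0.05 over all 5301 genes). On the log2 scale, shH6 was higher than shH4 for Inhbb (1.02), Notch1 (0.57), Il12rb1 (0.47), Areg (0.37), Jag2 (0.25) and Il4ra (0.19). It was lower for Wnt7b (−0.19), Il17rc (−0.20), Tnfrsf26 (−0.38), Tgfb3 (−0.39), Tnfrsf21 (−0.43), Tnfsf4 (−0.53), Il2rg (−0.55) and Fzd4 (−0.71).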

How the results depend on the processing

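Counts of called members kept within 1.5 times their value and no called value reversed under the 18 alternatives. Exceptions were 2 pathway counts: the TGF-β and BMP list, 3 to 7 genes called in both hairpins when single libraries were left out (7 with all), and the Wnt list, 4 with upper quartile scaling in place of 9. For the changes of single members from shControl and the 14 called differences between the hairpins, 2666 of 2728 values kept direction and call, 42 lost the call and 20 gained it, in 18 genes. Of the differences between the hairpins in the 55 members not called there, 8 passed the test under some alternative (Bmp4, Bmpr1a, Csf1, Il15, Tnfrsf11a, Tnfrsf12a, Tnfrsf9 and Tnfsf18), and 39 of 986 values, in 21 genes, changed sign without passing it. The cause was not tested. Upper quartile scaling moved the median of all genes by −0.061 in shH4 and −0.052 in shH6 (log2), and ended the shH4 calls of Jagn1, Tnfaip1, Nrp2, Tnfrsf1b and Tnfrsf22 and the shH6 calls of Tnfaip1 and Tnfrsf1b. Over all genes, 438 differed between the hairpins, 684 with library weights, 290 without shH4 replicate 1 and 287 without shH6 replicate 1; among members, 14 did, 20 with weights and 11 to 16 with a library left out.

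With the replicate number as a block, members called were 61 in shH4, 67 in shH6 and 15 between the hairpins, against 61, 67 and 14 without it. Deviations of same-numbered libraries correlated by −0.155 to 0.108. Libraries of different numbers were not compared in this way, so whether the numbers pair the samples was not settled. Depth, at 10.5 to 19.9 M estimated reads, limits members at the lowest counts, such as Tnfrsf14, Sema3a and Plxna4.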
